A study of Mus musculus with 12 samples.

Results

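The 41 genes described here encode proteins that copy DNA in S phase or that switch S phase on. They were taken by name from 26728 gene names found in both deposited count tables, and all 41 were present and passed the filter on low counts at both days. The members and the other lists below were chosen with earlier results of these data known. The shares of all genes printed beside their counts are thus a description and not a test. RNA was sequenced from primary mouse vascular smooth muscle cells (VSMC) of the aorta in 4 groups of 3 libraries. The groups were wild type (WT) cells at day 1, NR4A3 knockout (KO) cells at day 1, WT cells at day 14 and KO cells at day 14. NR4A3, encoded by Nr4a3, is a nuclear receptor of the NR4A family, and the series concerns vascular calcification. Per the labels' protocols, all groups were grown in DMEM/F12 medium with fetal bovine serum and 10 mM beta-glycerophosphate (beta-GP), a phosphate donor used to bring about mineral deposition in cultured cells. As a treatment, however, beta-GP is labelled for KO alone and none is labelled for WT, and genotype and this difference cannot be told apart. The labels do not say how the knockout was made, the age of the mice, or whether the 3 replicates of a group were separate animals or cultures. The p-values then set each difference only against the spread among these libraries, and that spread may be technical.

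DNA is copied once per cell cycle. In G1, the origin recognition complex, Cdc6 and Cdt1 load the MCM helicase ring onto origins, a step called licensing. At the start of S phase, Cdc45 and the GINS complex join the ring to form the active helicase, polymerase alpha and its primase lay down primers, and polymerases delta and epsilon extend them with the help of the sliding clamp PCNA. Cyclin E and the E2F transcription factors promote entry into S phase, and E2F factors bind many promoters of replication genes. Smooth muscle cells in a healthy artery rarely divide, whereas in culture with serum they proliferate. In RNA from a whole culture, more cells in S phase and more RNA per cell cannot be told apart.

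E2F-type sites in promoters of these genes are shown as background on the list. Whether they had a part in the changes was not tested, and the share of matches does not depend on the counts. RefSeq promoter windows on GRCm38.p6, running from 250 bases before to 50 bases after the annotated start, were searched on both strands for TTTCCCGC, TTTCGCGC, TTTGCCGC and TTTGGCGC, 4 forms of the E2F consensus, where matches may overlap. Windows were found for 34 of the 41 members (40 windows, since some genes have several starts). Of these, 14 (35%) held a match, against 744 of 32851 windows (2.26%) over all genes. Members without a window were Mcm4, Gins1, Gins2, Gins4, Pole, Rfc2 and Ccne2. For 28 of the 40 windows, the first 30 transcribed bases were found in a GENCODE M21 transcript of the same gene, and 0 were found on the opposite strand.

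Stretches of 120 bases upstream of the start are printed for 6 members, and 30 bases for E2f2, whose match lies after the start. They read 5′ to 3′ on the gene's own strand with the matches in capitals. Mcm6 carries 3 matches and Mcm5 carries 2, some of them overlapping. The Mcm7 window also holds 2, of which TTTCGCGC lies after the start and outside the printed stretch. The stretches lie at chr11:98907957-98908076 (Cdc6, plus strand), chr8:75109302-75109421 (Mcm5, plus), chr1:128359721-128359840 (Mcm6, minus), chrX:93632230-93632349 (Pola1, minus), chr5:138171985-138172104 (Mcm7, minus), chr17:56304072-56304191 (Uhrf1, plus) and chr4:136172294-136172323 (E2f2, plus). All of these genes rose in KO at day 14, by log2 fold changes from 0.71 (Mcm7) to 2.71 (E2f2), where the median of all 41 members was 1.26. The values ran from 0.46 to 2.71 over the 14 members with a match. Over the 20 with a window but no match they ran from 0.42 to 2.35.
Cdc6: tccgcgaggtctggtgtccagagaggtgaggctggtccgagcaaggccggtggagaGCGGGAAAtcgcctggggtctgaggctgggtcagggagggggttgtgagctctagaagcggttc
Mcm5: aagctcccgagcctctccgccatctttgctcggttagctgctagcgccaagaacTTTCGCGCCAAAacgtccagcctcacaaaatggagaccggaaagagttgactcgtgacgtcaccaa
Mcm6: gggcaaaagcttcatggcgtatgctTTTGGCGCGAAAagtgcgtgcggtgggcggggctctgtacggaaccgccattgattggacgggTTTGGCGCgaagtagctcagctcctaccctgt
Pola1: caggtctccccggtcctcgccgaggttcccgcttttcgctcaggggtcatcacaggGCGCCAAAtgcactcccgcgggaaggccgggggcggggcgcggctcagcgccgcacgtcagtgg
Mcm7: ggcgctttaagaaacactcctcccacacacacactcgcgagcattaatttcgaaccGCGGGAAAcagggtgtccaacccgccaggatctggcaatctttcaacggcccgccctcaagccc
Uhrf1: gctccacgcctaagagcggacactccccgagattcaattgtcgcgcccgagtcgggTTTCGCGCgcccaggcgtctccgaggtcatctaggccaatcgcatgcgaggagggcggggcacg
E2f2: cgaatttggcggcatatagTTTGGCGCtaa

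Library totals ranged from 13848199 to 30105118 counts. Nr4a3 was lower in KO, as its label states: at day 1 it stood at 4.61, 4.28 and 3.85 CPM (counts scaled to a common library total) in WT and 1.89, 2.002 and 2.34 CPM in KO. At day 14 it stood at 238, 256 and 217 CPM in WT and 34.3, 60.1 and 54.5 CPM in KO, so reads of the gene were still counted in KO. Of 7 smooth muscle markers, Acta2 and Des were high in every library (Acta2 from 255 CPM upward), whereas Tagln and Myh11 stayed under 1 CPM everywhere. Their summed level was 1022 to 1083 CPM in WT and 1295 to 1483 CPM in KO at day 1, and 1135 to 1851 CPM in WT and 2001 to 2400 CPM in KO at day 14. Acta2 carried the higher sums in KO (log2 fold change 1.28 at day 1 and 1.29 at day 14), whereas Smtn was lower at both days (-0.90 ± 0.06 and -0.75 ± 0.19) and Des was lower at day 14 (-0.77 ± 0.20). Of the 5 smooth muscle markers tested, 3 were called higher and 1 lower in KO at day 1, and 2 higher and 2 lower at day 14. Lmod1 was higher at day 1 (3.95 ± 0.28, mean 9.62 against 0.628 CPM) and not called at day 14. Cnn1 was higher at both days (1.49 ± 0.49 and 1.66 ± 0.47), at group means of at most 1.93 CPM. Of 6 fibroblast markers, 1 stayed under 1 CPM in every library, and the summed level was 174 to 183 CPM in WT day 1 against 79.9 to 116 CPM in KO day 1, 78.5 to 105 CPM in WT day 14 and 91.1 to 97.9 CPM in KO day 14. All 4 fibroblast markers tested at day 1 were called lower in KO. At day 14 the similar sums held opposite calls, with Pdgfra higher (1.18 ± 0.14) and Cd34 (-2.39 ± 0.14) and Dcn (-1.47 ± 0.20) lower. The leukocyte and macrophage markers Ptprc and Adgre1 were at or near 0, but Cd68 was higher in KO at day 1 (1.15 ± 0.12, mean 48.6 against 21.9 CPM) and lower at day 14 (-0.92 ± 0.19, mean 30.7 against 57.9 CPM), and Csf1r was higher at day 14 (1.36 ± 0.29). Of the endothelial markers, Cdh5 was lower (-1.92, mean 3.70 against 14.1 CPM) and Vwf higher (1.22, mean 0.901 against 0.383 CPM) in KO at day 1, and Kdr and Vwf were lower at day 14 (-2.84 and -2.09). The part of these marker levels in the results on replication genes was not tested.

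A single WT library stood apart at day 14. WT day 14 replicate 1 was the highest of its group for 40 of the 41 members, whereas it was the highest for 41% of all genes. Its median ratio to the mean of replicates 2 and 3 was 1.74 over the members and 1.00 over all genes. The scaling holds the ratio over all genes near 1.00, so that value does not show the library to be otherwise like the others. The median coefficient of variation of the members was 35.5% in WT day 14, against 6.12% in WT day 1, 13.4% in KO day 1 and 6.99% in KO day 14. WT day 14 replicate 1 also differed over the transcriptome, low-count genes aside. Its chi-square per gene was 36.2 against replicate 2 and 51.5 against replicate 3. That of replicates 2 and 3 was 9.2, and pairs within the other groups had 2.91 to 19.5. In the same library the summed level of 26 genes of G2 and mitosis was 3197 CPM, against 2150 and 2110 CPM in replicates 2 and 3, and the summed smooth muscle markers were 1135 CPM, against 1736 and 1851 CPM. For KO against WT at day 14, counts of calls, the median of the members and their fold changes are therefore also given without this library. For most other results that rest on WT day 14, counts of calls and medians are. Group levels, marker values and calls, medians of the roles and most other fold changes include it. So do counts by size of change or by overlap. WT day 14 replicate 1 was singled out for its high levels of these same members. Leaving it out therefore raises most KO minus WT values at day 14 by construction and is no separate support for a rise.

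**Figure D1:**
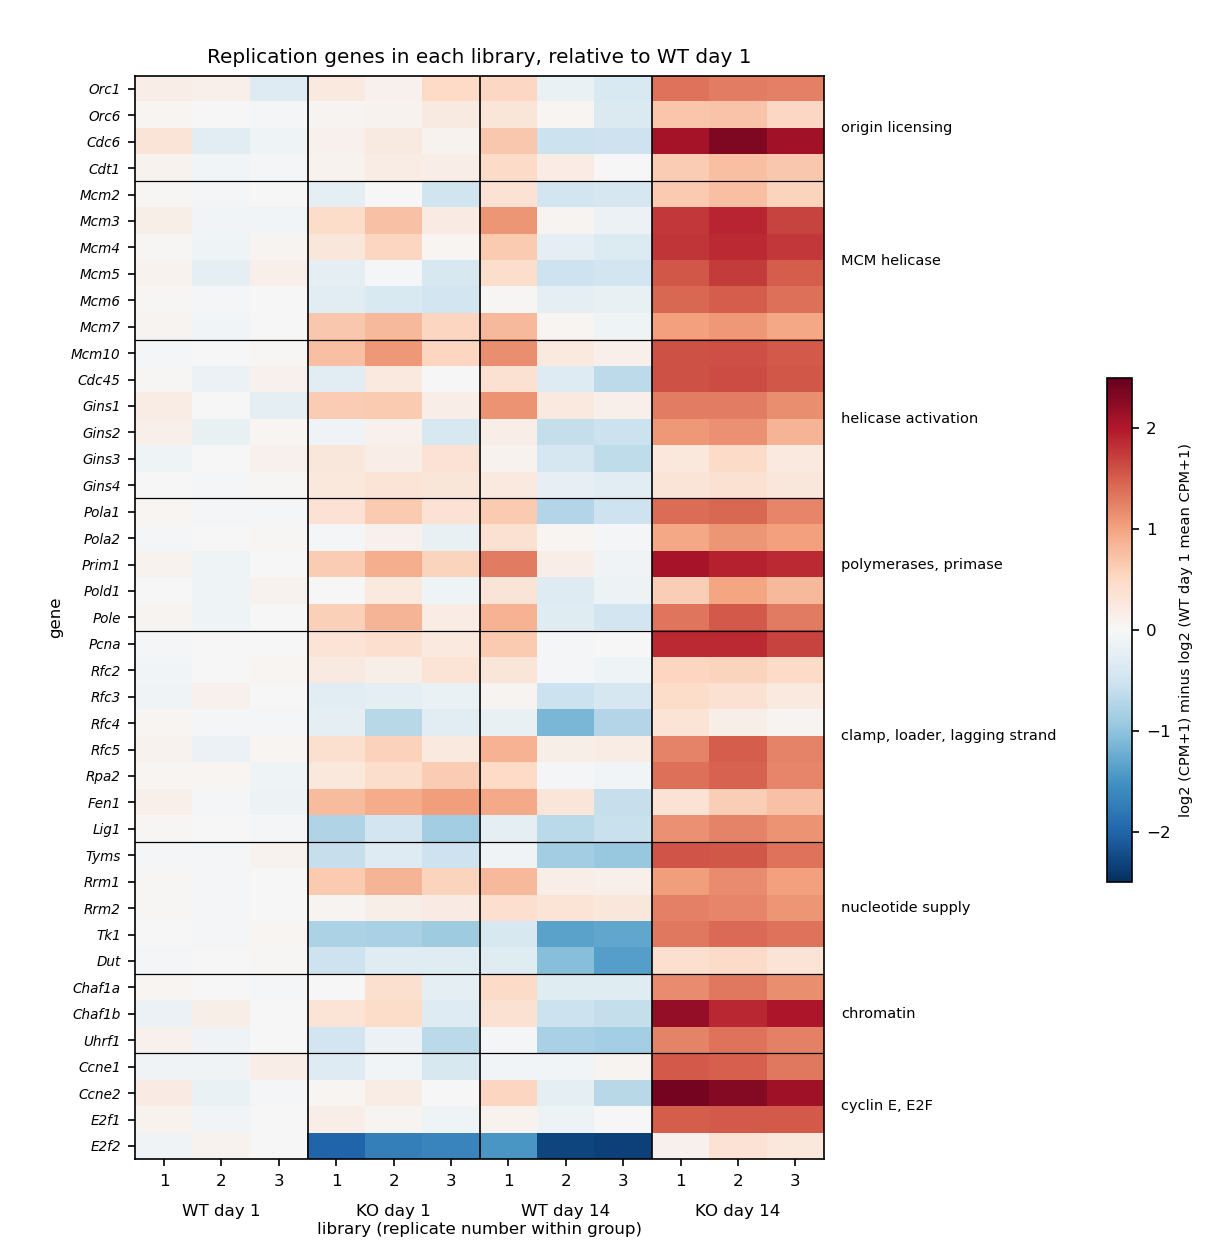
Level of each of the 41 replication genes (rows, grouped by role) in each of the 12 libraries (columns), as log2 (CPM+1) minus the log2 (mean CPM+1) of WT day 1, so that red is above and blue below WT day 1. All 3 KO day 14 libraries lie above WT day 1 for all 41 genes, WT day 14 replicate 1 differs from replicates 2 and 3, and E2f2 is the bluest row in KO day 1 and WT day 14.

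At day 14, replication genes were higher in KO than in WT across all 8 roles. Of the 41 members, 38 were called higher at an adjusted p below 0.05, where 22.7% of the 14905 genes tested were called higher, and 0 were called lower, where 23.7% of genes were. The count of members lower was also 0 at an unadjusted p below 0.05 and 0 by DESeq2. The median log2 fold change of the members was 1.26, against -0.00148 over all genes tested, a median that the scaling holds near 0. With library size alone as the scaling, these medians were 1.19 and -0.07. A rise by a log2 fold change of at least 1 was called for 24 members, and for 1294 of the 14905 genes tested. For 40 members the lowest KO library lay above the highest WT library, which held for 29.9% of genes (28.2% in the other direction, with 0 members). Without WT day 14 replicate 1, 40 members were called higher (30% of genes), 0 were called lower (30.6% of genes), and the median log2 fold change was 1.63. Leaving out each of the 6 libraries in turn kept the call of 29 of the 38.

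Among the 4 genes of origin licensing, all 4 rose in KO at day 14. Cdc6, the loader of the helicase, was at 14.8, 5.79 and 5.89 CPM in WT and 40.7, 48.5 and 41.1 CPM in KO, with no overlap even though WT replicate 1 was the highest of its group. The log2 fold change was 2.27 ± 0.32 (SE, adjusted p = 0.000526), and 2.86 ± 0.13 without WT replicate 1. Orc1, the large subunit of the origin recognition complex, rose by 1.37 ± 0.25 (adjusted p = 0.00219) on the log2 scale. Orc6, another subunit, rose by 0.64 ± 0.17 (adjusted p = 0.0136), and Cdt1, the partner of Cdc6 in loading, by 0.46 ± 0.13 (adjusted p = 0.0179). The call of Orc6 was lost without KO replicate 1 (adjusted p = 0.0546) or KO replicate 2 (0.0564), and that of Cdt1 without KO replicate 2 (0.0796) or without WT replicate 2, WT replicate 3 or KO replicate 3 (0.0547 to 0.0621). Without WT replicate 1 the log2 fold changes were 1.74 for Orc1, 0.80 for Orc6 and 0.58 for Cdt1.

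All 6 subunits of the MCM ring, the motor of the helicase, rose as well, by unequal amounts. Mcm5 was at 54.1, 27.3 and 28.1 CPM in WT and 118, 135 and 115 CPM in KO (log2 fold change 1.73 ± 0.24, adjusted p = 0.000478). Mcm2 was at 96.4, 53.5 and 55.3 CPM in WT and 119, 127 and 110.5 CPM in KO, a smaller gap that WT replicate 1 came close to closing. Its log2 fold change was 0.78 ± 0.21 (adjusted p = 0.0132), 1.09 ± 0.08 without WT replicate 1, with the call lost without KO replicate 2 (adjusted p = 0.0531). Mcm7, at 138, 79.8 and 71.5 CPM in WT and 159, 165 and 153 CPM in KO, rose by 0.71 ± 0.21 (adjusted p = 0.0238). The call of Mcm7 was lost when any library other than WT replicate 1 was left out (adjusted p 0.057 to 0.0865), while without WT replicate 1 the log2 fold change was 1.04 ± 0.08. The other subunits, Mcm3, Mcm4 and Mcm6, had log2 fold changes of 1.34 ± 0.29, 1.72 ± 0.24 and 1.57 ± 0.09. Without WT replicate 1 the values were 1.82, 2.10 and 1.63, and that of Mcm5 was 2.11. The summed level of the 6 subunits was 346 to 604 CPM in WT and 1041 to 1158 CPM in KO.

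Of the 6 genes that turn the loaded ring into a moving helicase, 4 were called. Cdc45, which joins the ring at the start of S phase, was at 28.7, 17.3 and 13.4 CPM in WT and 67.6, 70.1 and 66.1 CPM in KO (log2 fold change 1.76 ± 0.24, adjusted p = 0.000373). Mcm10, which takes part in the same step, was at 39.0, 20.03 and 18.5 CPM in WT and 52.6, 53.2 and 50.7 CPM in KO (log2 fold change 1.00 ± 0.25, adjusted p = 0.0102). In both genes the KO libraries were close together and WT replicate 1 was the nearest WT library to them. The 4 GINS genes encode the subunits of a single complex but had different values. Gins2 had a log2 fold change of 1.39 ± 0.23 and Gins3 one of 0.66 ± 0.21 (adjusted p = 0.0308, up to 0.118 when any library other than WT replicate 1 was left out). Gins1 (0.70 ± 0.26, adjusted p = 0.0533) and Gins4 (0.38 ± 0.15, adjusted p = 0.0649) missed the threshold, and both passed it without WT replicate 1 (adjusted p = 1.63e-06 and 0.000179), with log2 fold changes of 1.11 and 0.55. In the same fit the values were 2.13 for Cdc45, 1.41 for Mcm10, 1.70 for Gins2 and 0.91 for Gins3. Of the exon bases of Gins2 in GENCODE M21, 67.3% overlap Gse1 on the opposite strand, so its counts are uncertain where strand was not used.

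All 5 genes of the polymerases and primase rose. Pola1, the catalytic subunit of polymerase alpha, was at 63.0, 23.5 and 27.3 CPM in WT and 105, 108 and 93.6 CPM in KO (log2 fold change 1.41 ± 0.32, adjusted p = 0.00609, and 1.97 ± 0.10 without WT replicate 1). Prim1, the catalytic subunit of primase, was at 66.0, 29.8 and 24.7 CPM in WT and 112, 102 and 98.6 CPM in KO (log2 fold change 1.36 ± 0.31, adjusted p = 0.00662). No KO library of either gene fell as low as the highest WT library. Pola2, the second subunit of polymerase alpha, rose by 0.89 ± 0.12, Pold1, the catalytic subunit of polymerase delta, by 0.82 ± 0.17, and Pole, that of polymerase epsilon, by 1.24 ± 0.31 on the log2 scale. Without WT replicate 1 the log2 fold changes were 1.91 for Prim1, 1.01 for Pola2, 1.01 for Pold1 and 1.80 for Pole.

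Of the 8 genes of the sliding clamp, its loader, single-strand binding and lagging strand joining, 7 rose. Pcna, the clamp itself, was at 123, 75.6 and 76.9 CPM in WT and 286, 284 and 251 CPM in KO (log2 fold change 1.56 ± 0.18, adjusted p = 0.000163). Lig1, the ligase that seals the lagging strand, was at 46.5, 34.1 and 37.1 CPM in WT and 124, 131 and 120.4 CPM in KO (log2 fold change 1.66 ± 0.12, adjusted p = 1.41e-05). For both genes every KO library was above 2 times the highest WT library, and the log2 fold changes without WT replicate 1 were 1.81 and 1.78. The 4 clamp loader genes Rfc2 to Rfc5 rose less, by 0.46 ± 0.13, 0.64 ± 0.17, 0.84 ± 0.24 and 0.92 ± 0.20, and Rpa2, a subunit of the single-strand binding protein, by 1.24 ± 0.17. Calls were lost for Rfc2 without any 1 library other than WT replicate 1 (adjusted p 0.0517 to 0.0651), for Rfc3 without KO replicate 1 (0.0571), and for Rfc4 without KO replicate 1 (0.0745) or WT replicate 3 (0.0554). Without WT replicate 1 the log2 fold changes of Rfc2 to Rfc5 were 0.58, 0.84, 1.13 and 1.18, and that of Rpa2 was 1.44. Fen1, which trims the lagging strand, had 37, 12 and 0 counts in WT and 15, 18 and 27 counts in KO and gave no call. Its groups overlapped, its log2 fold change of 0.42 ± 0.83 (adjusted p = 0.707) turned to -0.19 without WT replicate 3 and to 1.68 without WT replicate 1 (adjusted p = 0.0603), and 78.8% of its exon bases overlap the antisense gene Gm10143.

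The 5 genes of nucleotide supply all rose. Tk1, thymidine kinase, which salvages thymidine, was at 28.9, 14.6 and 14.9 CPM in WT and 97.04, 105 and 99.1 CPM in KO (log2 fold change 2.35 ± 0.24, adjusted p = 8.49e-05). Rrm2, the S phase subunit of ribonucleotide reductase, was at 183, 173 and 165 CPM in WT and 324, 316 and 291 CPM in KO (log2 fold change 0.83 ± 0.09, adjusted p = 8.77e-05). Unlike most members, Rrm2 differed little between WT replicate 1 and the other WT libraries. Tyms, thymidylate synthase, rose by 2.14 ± 0.23, Dut, which removes dUTP, by 1.26 ± 0.24, and Rrm1, the large subunit of the reductase, by 0.67 ± 0.17 (adjusted p = 0.0118, and 0.0519 without KO replicate 2). Without WT replicate 1 the log2 fold changes were 2.73 for Tk1, 0.85 for Rrm2, 2.48 for Tyms, 1.63 for Dut and 0.91 for Rrm1.

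The chromatin genes and the regulators had the largest medians, 1.82 over the 3 chromatin genes and 2.01 over the 4 regulators. Chaf1b, a subunit of the chaperone that places histones behind the fork, was at 12.4, 6.07 and 5.79 CPM in WT and 46.2, 37.3 and 40.99 CPM in KO (log2 fold change 2.34 ± 0.27, adjusted p = 0.00017). Uhrf1, which guides maintenance of DNA methylation, was at 70.6, 41.4 and 40.2 CPM in WT and 176, 191 and 176 CPM in KO (log2 fold change 1.82 ± 0.20, adjusted p = 0.000127). Both were higher in each KO library than in any WT library. Chaf1a, the large subunit of the chaperone, rose by 1.23 ± 0.20, although 52.5% of its exon bases overlap Ubxn6 on the opposite strand. Without WT replicate 1 the log2 fold changes were 2.78 for Chaf1b, 2.12 for Uhrf1 and 1.53 for Chaf1a.

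Among the regulators, Ccne1 and E2f1 rose with little spread in either group. Ccne1, which encodes cyclin E1, was at 10.1, 10.1 and 11.2 CPM in WT and 32.7, 31.8 and 28.2 CPM in KO (log2 fold change 1.55 ± 0.13, adjusted p = 2.29e-05). E2f1 was at 19.1, 16.5 and 17.9 CPM in WT and 53.2, 54.1 and 54.2 CPM in KO (log2 fold change 1.58 ± 0.10, adjusted p = 6.71e-06, and 1.61 ± 0.10 without WT replicate 1). In these 2 genes WT replicate 1 lay with the other WT libraries. E2f2 was at 2.90, 1.19 and 1.14 CPM in WT and 10.6, 12.7 and 11.9 CPM in KO, a log2 fold change of 2.71 ± 0.33 (adjusted p = 0.000235) and of 3.30 ± 0.22 without WT replicate 1. Ccne2, which encodes cyclin E2, rose by 2.44 ± 0.29, and the value was 2.92 without WT replicate 1, against 1.49 for Ccne1.

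**Figure D2:**
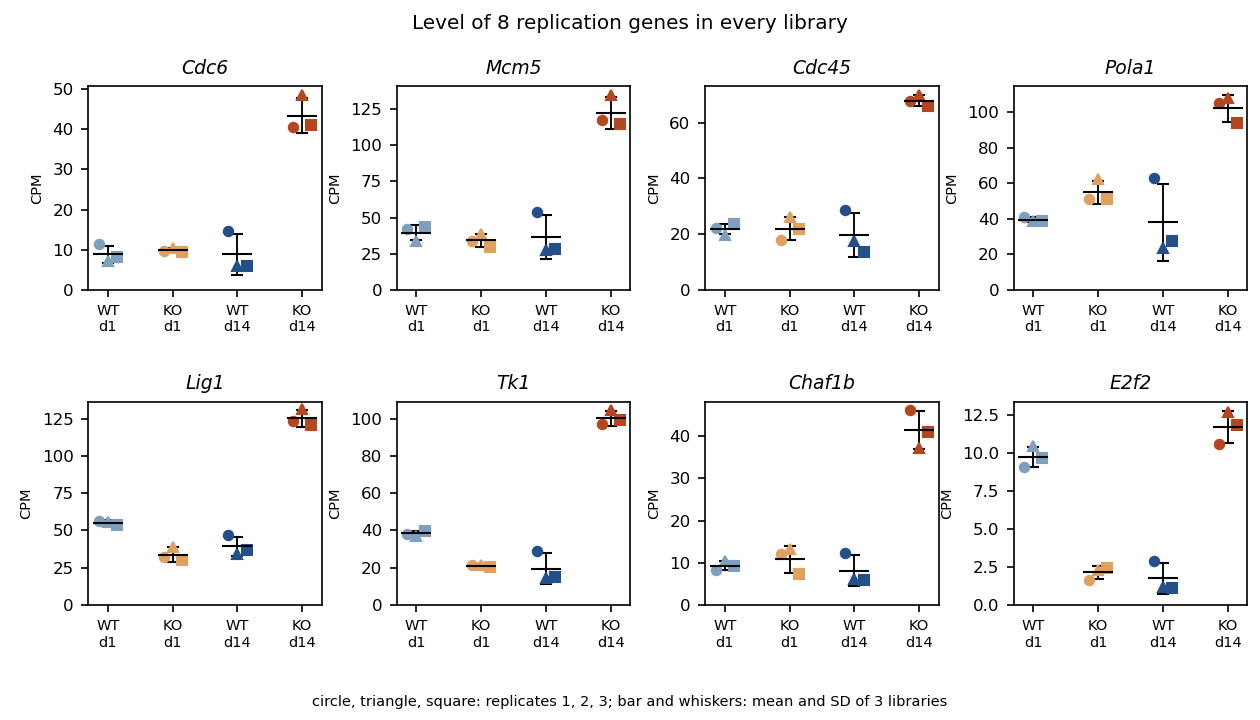
CPM of 8 replication genes in every library (vertical axes, linear from 0), with the mean and SD of the 3 libraries of each group. KO day 14 stands above the other 9 libraries in all 8 panels, narrowly so for E2f2, where WT day 1 (9.10 to 10.4 CPM) is close to KO day 14 (10.6 to 12.7 CPM).

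At day 1 the same genes did not move as a group: some were higher in KO and others lower. Of the 41 members, 17 were called higher, where 30.6% of the 15368 genes tested were, and 9 were called lower, where 30.2% of genes were. The median log2 fold change was 0.15 over the members and 0.01 over all genes tested. Groups did not overlap for 17 members higher in KO (32.7% of genes) and 9 lower (34% of genes). Fold changes were small beside those of day 14, with 1 called member (Fen1) at or above 1 and 1 (E2f2) at or below -1 on the log2 scale. Of the 15368 genes tested, 1551 and 1456 were called at these sizes. With all 12 libraries sharing one estimate of the spread, 7 members were called higher and 5 lower, where 26.2% and 26.1% of genes were. With library size alone as the scaling, the members called were 20 higher and 7 lower (38.5% and 23.9% of genes), the median over all genes was 0.135, and 61.7% of all calls were higher against 50.4%.

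The members higher in KO at day 1 were spread over the helicase, polymerase, clamp and nucleotide genes. Mcm7 was at 81.5, 74.4 and 76.9 CPM in WT and 124, 137 and 113 CPM in KO (log2 fold change 0.69 ± 0.07, adjusted p = 3.08e-06). Mcm10 was at 16.4, 16.6 and 17.2 CPM in WT and 28.9, 36.5 and 24.7 CPM in KO (log2 fold change 0.85 ± 0.13, adjusted p = 6.66e-05). Prim1 was at 28.1, 24.4 and 26.5 CPM in WT and 41.6, 50.2 and 39.0 CPM in KO (log2 fold change 0.74 ± 0.10, adjusted p = 3.26e-05). The groups did not overlap in any of these 3 genes. Rrm1 rose by 0.70 ± 0.07, Pole by 0.59 ± 0.13, Gins1 by 0.56 ± 0.17, Mcm3 by 0.50 ± 0.11, and Pola1 and Rpa2 by 0.48 ± 0.09 and 0.48 ± 0.12. Pcna was at 76.1, 78.4 and 77.6 CPM in WT and 98.3, 104 and 92.4 CPM in KO, a log2 fold change of 0.35 ± 0.06 (adjusted p = 0.000271). Rfc5 (0.45 ± 0.12), Gins4 (0.33 ± 0.08), Mcm4 (0.31 ± 0.10), Gins3 (0.30 ± 0.11), Rfc2 (0.26 ± 0.08) and Rrm2 (0.15 ± 0.06) were higher by smaller amounts. Rrm2 was at 139, 134 and 134 CPM in WT and 143, 149.7 and 156 CPM in KO. Fen1, with 15, 13 and 9 counts in WT and 28, 33 and 42 counts in KO, had a log2 fold change of 1.92 ± 0.36 (adjusted p = 0.000484) and rests on these low counts.

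The members lower in KO at day 1 included E2f2, 3 of the 5 nucleotide genes and Lig1. E2f2 was at 9.10, 10.4 and 9.64 CPM in WT and 1.67, 2.28 and 2.44 CPM in KO, far apart in every library (log2 fold change -2.18 ± 0.18, adjusted p = 2.61e-07). Tk1 was at 38.2, 37.0 and 39.8 CPM in WT and 21.6, 21.5 and 20.1 CPM in KO (log2 fold change -0.85 ± 0.08, adjusted p = 1.08e-06). Lig1 was at 56.4, 55.6 and 53.4 CPM in WT and 32.4, 39.0 and 29.8 CPM in KO (log2 fold change -0.70 ± 0.09, adjusted p = 2.37e-05). In all 9 members called lower at day 1 the difference ran opposite to that of day 14, when each was called higher. Tyms (-0.49 ± 0.10), Uhrf1 (-0.42 ± 0.11), Rfc4 (-0.40 ± 0.12), Mcm6 (-0.38 ± 0.06), Dut (-0.37 ± 0.07) and Rfc3 (-0.22 ± 0.09) were lower as well. Uhrf1 was at 78.7, 68.8 and 72.7 CPM in WT and 52.3, 65.8 and 45.6 CPM in KO, with the highest KO library just under the lowest WT library.

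At day 1, 15 members gave no call: Orc1, Orc6, Cdc6, Cdt1, Mcm2, Mcm5, Cdc45, Gins2, Pola2, Pold1, Chaf1a, Chaf1b, Ccne1, Ccne2 and E2f1. They include all 4 licensing genes. None of the licensing genes passed an unadjusted p below 0.05 either. Cdc6 was at 11.3, 7.08 and 8.13 CPM in WT and 9.66, 10.5 and 9.46 CPM in KO (log2 fold change 0.17 ± 0.17). Chaf1b was at 8.35, 10.4 and 9.20 CPM in WT and 12.05, 13.2 and 7.21 CPM in KO, and Cdc45 at 22.3, 19.7 and 23.4 CPM in WT and 18.0, 26.1 and 21.8 CPM in KO. The groups overlapped in all 3 genes. E2f1 was at 19.1, 17.1 and 17.8 CPM in WT and 20.4, 18.8 and 16.6 CPM in KO, and Ccne1 at 9.94, 9.94 and 12.1 CPM in WT and 8.33, 10.1 and 7.80 CPM in KO. Mcm2 was at 76.6, 72.4 and 74.99 CPM in WT and 63.7, 73.9 and 52.9 CPM in KO (log2 fold change -0.23 ± 0.10, adjusted p = 0.0594), and Mcm5 at 42.0, 33.5 and 43.2 CPM in WT and 33.9, 38.9 and 29.6 CPM in KO (-0.21 ± 0.11, adjusted p = 0.134). Both passed the threshold without KO replicate 2 (adjusted p = 0.000576 and 0.016), the KO library highest for 28 of the 41 members, and Orc1 (0.0423) and Ccne1 (0.0209) did so too, as did Mcm5 without WT replicate 2 (0.0337) and Chaf1b without KO replicate 3 (0.00844). In the other direction, the calls of Mcm4, Gins1, Gins3, Rfc2, Rfc3 and Rrm2 were each lost without at least 1 library, with adjusted p up to 0.105, 0.064, 0.149, 0.0733, 0.171 and 0.146. The calls of the other 20 held whichever library was left out.

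**Figure D3:**
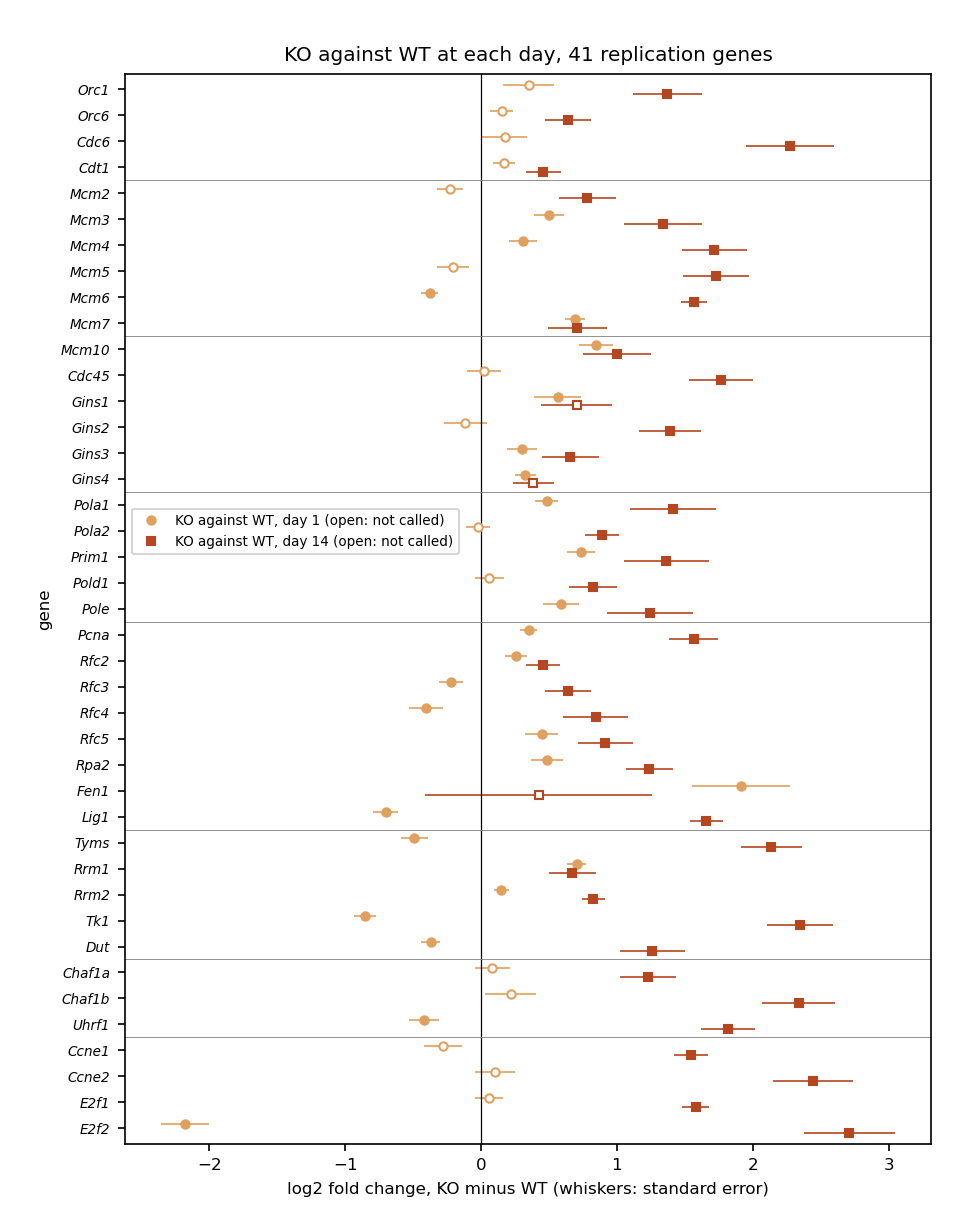
Log2 fold change of KO against WT for each of the 41 members (rows, grouped by role) at day 1 (circles) and day 14 (squares), with standard errors as whiskers and open symbols for genes not called. Squares lie to the right of 0 for all 41 genes, 38 of them filled, while filled circles lie on both sides of 0, 17 to the right and 9 to the left.

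The difference between the KO effects of the 2 days was tested as an interaction over all 12 libraries. The days come from separate tables, and a shift common to a whole table cancels in this difference. The KO effect was more positive at day 14 for 29 of the 41 members, where 29.5% of the 15973 genes tested were called in that direction, and more negative for 0, where 30.5% of genes were. At an unadjusted p below 0.05 the counts were 29 and 0, and by DESeq2 27 and 0. The median was 1.03 over the members and -0.01 over all genes. Without WT day 14 replicate 1 the counts were 38 and 0, where 31.2% and 32.7% of genes were called, and the median was 1.40. E2f2 changed the most, by 4.90 ± 0.38 (adjusted p = 3.1e-08), followed by Tk1 at 3.22 ± 0.26 and Tyms at 2.64 ± 0.26, all of which were lower in KO at day 1 and higher at day 14. Without WT day 14 replicate 1 the values of E2f2, Tk1 and Tyms were 5.49, 3.60 and 2.99.

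The other 12 members gave no call for this change. Mcm7 (0.04 ± 0.24) and Rrm1 (-0.01 ± 0.20) had KO effects of 0.69 (day 1) and 0.71 (day 14) for Mcm7, and of 0.70 and 0.67 for Rrm1. Gins4 (0.08 ± 0.17), Gins1 (0.16 ± 0.34) and Mcm10 (0.17 ± 0.30) also had small values, but the standard errors leave room for a difference in either direction. Without WT day 14 replicate 1, the change was called for Mcm7 (adjusted p = 0.00603), Mcm10 (0.00496) and Gins1 (0.0329), and also for Cdt1, Gins3, Prim1, Pole, Rfc2 and Rfc5. Fen1 (-1.47 ± 0.97, adjusted p = 0.203) was called without WT day 14 replicate 3 (0.00471). Calls were lost for Orc6, Mcm3 and Pola1 in 8, 10 and 7 of the 12 fits that left out a library, with adjusted p up to 0.0972, 0.0968 and 0.0824.

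Contrasts between the days also hold any difference between the tables, and they share libraries with the comparisons above. In KO, 37 members were higher at day 14 than at day 1 (26.9% of genes) and 0 were lower (27.9% of genes, and 0 members at an unadjusted p below 0.05 or by DESeq2), with a median log2 fold change of 1.08. The mean of Cdc6 went from 9.88 ± 0.56 (SD, n = 3) to 43.4 ± 4.39 CPM, that of E2f1 from 18.6 ± 1.91 to 53.8 ± 0.58 CPM, and that of E2f2 from 2.13 ± 0.41 to 11.7 ± 1.07 CPM. The 4 members not called were Mcm7 (0.35 ± 0.17), Gins3 (0.06 ± 0.17), Gins4 (0.02 ± 0.12) and Fen1 (-0.58 ± 0.65). In the fit without WT day 14 replicate 1, which shares its estimate of the spread, 38 members were higher (29.5% of genes) and 0 lower (31.5% of genes).

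In WT, 5 members were higher at day 14 than at day 1 (25.8% of genes) and 7 were lower (26.1% of genes), with a median of -0.01. Those higher were Mcm10, Gins1, Rfc5, Rrm1 and Rrm2, and those lower were E2f2, Tk1, Dut, Rfc4, Tyms, Uhrf1 and Lig1. E2f2 fell by 2.45 on the log2 scale, from 9.73 ± 0.67 to 1.74 ± 1.00 CPM, and Tk1 fell by 0.97, from 38.3 ± 1.42 to 19.5 ± 8.18 CPM. This contrast depended on WT day 14 replicate 1. Without it, 1 member was called higher and 21 lower, with a median of -0.30, where 27.4% and 27.7% of genes were called. The log2 fold changes of E2f2 and Tk1 were then -3.05 and -1.36. Without WT day 14 replicate 2 or 3, 8 and 11 members were called higher, where 25.1% and 25.7% of genes were.

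The last 2 contrasts crossed genotype and day. KO day 14 against WT day 1 had 36 members higher (24.6% of genes) and 0 lower (26.1% of genes, and 0 members at an unadjusted p below 0.05 or by DESeq2), with a median of 1.35. The members not called were Gins3, Rfc4, Fen1, Dut and E2f2. With only the 6 libraries of these 2 groups in the fit, all 41 members were called higher (34.6% of genes) and 0 lower (34.1% of genes). In the fit without WT day 14 replicate 1 the counts were 39 (28.3% of genes) and 0 (28.9%). KO day 1 and WT day 14 differed little over the whole transcriptome, with 3.89% of genes higher and 5.89% lower in KO day 1. Of the members, Gins3 was higher (log2 fold change 0.60 ± 0.17, adjusted p = 0.0412) and 0 were lower, with 4 and 2 members at an unadjusted p below 0.05, 2 and 2 by DESeq2, and a median of 0.12. The call of Gins3 was lost with only the 6 libraries of these groups, with the replicate number as a block, and in 10 of the 12 fits that left out a library. Nr4a3 differed between those groups by -6.82 ± 0.21 on the log2 scale. Group labels were used as given: besides Nr4a3 no measure used here checks them, and the labels give no cell density or passage, so that what sets KO day 1 and WT day 14 close together was not tested and every direction printed depends on these labels. Without WT day 14 replicate 1, 27 members were higher in KO day 1 and 0 lower, with a median of 0.52, where 17.1% and 16.6% of genes were called.

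KO day 14 held the highest levels of the study for nearly all members. Its lowest library lay above all 9 other libraries for 38 of the 41 members, which held for 15.5% of genes, the exceptions being Gins3, Gins4 and Fen1. The summed level of the 41 genes was 1466 to 1547 CPM in WT day 1, 1534 to 1813 CPM in KO day 1, 1309 and 1262 CPM in WT day 14 replicates 2 and 3, 2063 CPM in WT day 14 replicate 1, and 3487 to 3848 CPM in KO day 14. The mean was highest in KO day 14 for 40 members and in KO day 1 for Fen1. The lowest mean was in WT day 1 for 18 members, in WT day 14 for 17 and in KO day 1 for 6.

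A list of 60 other genes of DNA replication, repair at the fork and S phase control gave counts of the same direction at day 14, when 46 (76.7%) were called higher and 2 (3.33%) lower in KO, against 22.7% and 23.7% of all genes, with a median of 0.72. The counts were 55 and 2 and the median 0.94 without WT day 14 replicate 1. Dscc1, part of an alternative clamp loader, rose by 2.46 ± 0.44 on the log2 scale (1.14 to 6.20 CPM in WT and 18.4 to 19.8 CPM in KO). Exo1, an exonuclease of mismatch repair, rose by 1.99 ± 0.27. The 2 genes lower were subunits of the origin recognition complex, Orc5 (-0.67 ± 0.12) and Orc4 (-0.30 ± 0.10), whereas the members Orc1 and Orc6 of the same complex rose. At day 1, 23 of the 60 (38.3%) were higher and 10 (16.7%) lower, against 30.6% and 30.2% of all genes, with a median of 0.15. Nme1 (1.08 ± 0.13), a nucleoside diphosphate kinase, and Mcm8 (1.07 ± 0.11), a relative of the MCM subunits, had the largest rises. E2f8, a repressor of the E2F family (-1.50 ± 0.10), and Dnmt1, the methyltransferase that works with Uhrf1 (177 to 186 CPM in WT and 75.8 to 99.8 CPM in KO), had the largest falls at day 1, and both were higher in KO at day 14 (1.60 ± 0.14 and 1.04 ± 0.08).

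Genes of G2 and mitosis act after replication. Of 26 such genes, 8 (30.8%) were called higher and 5 (19.2%) lower in KO at day 14, near the 22.7% and 23.7% of all genes, with a median of -0.07. The counts were 13 (50%) and 5 (19.2%) without WT day 14 replicate 1, where 30% and 30.6% of genes were called, and the median turned to 0.18. At day 1, 1 (3.85%) was higher and 14 (53.8%) were lower, against 30.6% and 30.2% of all genes, with a median of -0.29. By the interaction, the KO effect was more positive at day 14 for 12 of these 26 genes (46.2%) and more negative for 3 (11.5%). Of all genes, 29.5% and 30.5% were so called. Without WT day 14 replicate 1 the counts were 21 (80.8%) and 3 (11.5%), where 31.2% and 32.7% of genes were called. The summed level of the 26 genes was 3618 to 3730 CPM in WT day 1, 2828 to 3039 CPM in KO day 1, 2110 to 3197 CPM in WT day 14 and 2810 to 3130 CPM in KO day 14. The highest summed level of these genes was thus in WT day 1, and that of the replication genes in KO day 14. The difference between the lists was not tested.

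**Figure D4:**
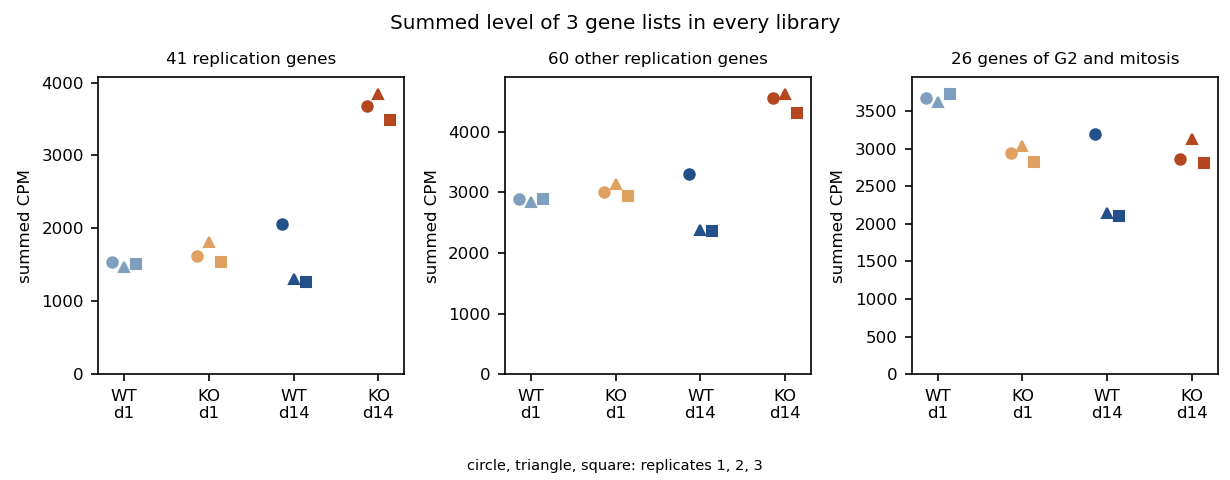
Summed CPM of 3 gene lists in every library (circle, triangle and square for replicates 1, 2 and 3; vertical axes from 0). KO day 14 is the highest group for the 41 replication genes (3487 to 3848 CPM) and for the 60 other replication genes, but not for the 26 genes of G2 and mitosis (2810 to 3130 CPM), and WT day 14 replicate 1 lies above replicates 2 and 3 in all 3 panels.

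Members with and without an E2F-type match had close medians. At day 14, the 14 members whose window held a match had a median log2 fold change of 1.39 (0.46 to 2.71) and the 20 with a window but no match had one of 1.23 (0.42 to 2.35). These medians were 1.76 and 1.51 without WT day 14 replicate 1. At day 1 the medians were 0.11 and 0.12. Matches were found in 19 of 55 windows of the other replication genes (34.5%) and in 1 of 23 windows of the G2 and mitosis genes (4.35%). Tk1, with no match in its window, had a day 14 log2 fold change of 2.35 ± 0.24, and E2f2, with the match printed above, one of 2.71 ± 0.33.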

How the data were processed

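Raw read counts per gene name were deposited by the authors in 1 table for each day (28494 and 30866 lines), with whole numbers in every column. The only genome build in the submitters' processing notes is mm9. Which aligner, counter and annotation were used, and whether strand was used, is not given in the sources used here. RNA came from TRIzol extracts and libraries from an NEBNext kit, per the labels' protocols. Repeated lines with identical counts (43 and 53) were removed. Columns were matched to samples by genotype and replicate number, and each table gave the day.

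Differences were tested in R 4.3.3 by the quasi-likelihood F test of edgeR 4.0.16, after filterByExpr (minimum count 10) and TMM scaling. Benjamini-Hochberg adjustment ran over all genes tested, and a gene was called where the adjusted p was below 0.05. KO and WT were compared within the 6 libraries of each day. The interaction and all contrasts between days used 1 fit of 12 libraries over the shared names. The CPM printed are from that fit. Standard errors are the log2 fold change divided by the square root of F. "Higher", "rose", "lower" and "fell" refer to called genes.

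The members and lists were chosen with earlier results of these data known. Values in every library are given for the most changed called member of each role at each day, for up to 3 called members per day that went against the majority, and for Mcm2, Pcna, Rrm2, Cdc6, Ccne1 and E2f1. Of the other replication genes, the 2 called genes with the greatest rise and the 2 with the greatest fall are named at each day. Alternatives were DESeq2 1.42.0, other scalings and filters, the replicate number as a block, other libraries in the fit, and leaving out each library. Giving values without WT day 14 replicate 1 beside the main ones was chosen after seeing the data. So was leaving it out for the other lists and for the motif medians. Promoters were taken from RefSeq (GRCm38.p6), and exon overlaps from GENCODE M21. These differ from the build of the counts and served only for sequences and overlap.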

Additional observations from a re-analysis of the deposited data

Results flagged for a closer look

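For 29 of the 41 members the KO effect differed between the days by the test of the difference itself (the interaction over 12 libraries), each time more positive at day 14. The values are log2 differences of the KO effect, day 14 minus day 1, with WT day 14 replicate 1 included. Among the licensing genes, the difference was 2.12 for Cdc6, 1.04 for Orc1 and 0.51 for Orc6. Among the MCM subunits it was 1.96 for Mcm6, 1.96 for Mcm5, 1.43 for Mcm4, 1.03 for Mcm2 and 0.86 for Mcm3. Of the genes of helicase activation, Cdc45 differed by 1.76 and Gins2 by 1.52. Of the polymerase genes, Pola1 differed by 0.95, Pola2 by 0.93 and Pold1 by 0.78.

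In the clamp and lagging strand group, the difference was 2.38 for Lig1, 1.26 for Rfc4, 1.23 for Pcna, 0.88 for Rfc3 and 0.77 for Rpa2. Among the nucleotide genes it was 3.22 for Tk1, 2.64 for Tyms, 1.65 for Dut and 0.70 for Rrm2. The chromatin genes Uhrf1, Chaf1b and Chaf1a differed by 2.26, 2.14 and 1.16. The regulators E2f2, Ccne2, Ccne1 and E2f1 differed by 4.90, 2.36, 1.85 and 1.54. The calls of Orc6, Mcm3 and Pola1 were each lost in several of the fits that left out a library.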

How the results depend on the processing

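Under the alternatives run, KO against WT at day 14 gave between 31 and 40 members higher and 0 lower. Across them, 12.8% to 30% of genes were called higher and 14.1% to 30.6% lower. The change of the KO effect gave 26 to 38 members higher, where 18.7% to 31.2% of genes were. It gave 1 lower (Fen1) without WT day 14 replicate 3, where 31.3% of genes were. The 38 without WT day 14 replicate 1 hold the 29 called with all libraries and 9 more. At day 1 the counts with all 12 libraries in the fit were 7 higher and 5 lower (26.2% and 26.1% of genes). Day 14 against day 1 in WT gave 9 members higher with library size alone (33.1% of genes). With only the 6 libraries of the 2 groups it gave 1 higher and 4 lower (24.2% and 22.7% of genes). When a library was left out it gave 1 to 11 higher (21.3% to 27.4% of genes) and 4 to 21 lower (21.8% to 27.7% of genes). KO day 1 against WT day 14 gave 2 higher and 2 lower with DESeq2 (5.64% and 8.4% of genes) and 1 lower with size factors of the DESeq2 kind (6.19% of genes). It gave 0 higher with only the 6 libraries (0.126% of genes), and 0 to 27 higher when a library was left out (0.9% to 17.1% of genes). The cause was not tested.

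Library size alone shifted the median of all genes for the change of the KO effect to -0.22, with 37.9% of calls higher against 49.2%. For day 14 against day 1 in WT, 62.7% of calls were then higher against 49.7%.

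Deviations of same-numbered libraries of the genotypes had correlations from -0.02 to 0.02 within a day. Between days, same-numbered libraries ran from -0.0701 to 0.103 (0.0237 to 0.0445 between the WT groups) and those of unlike number from -0.148 to 0.154. With 3 libraries a group, such values cannot tell whether same-numbered libraries share an animal, a culture or only a number. With the replicate block, 16 members were higher and 9 lower at day 1 (29.5% and 29.7% of genes), and 39 and 0 at day 14 (22.6% and 22.5%). The block gave 29 and 0 for the change between days (29.5% and 30.1% of genes). It gave 0 higher for KO day 1 against WT day 14 (3.74% of genes).

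No member called in a comparison turned sign in it under the alternatives run. Signs of members not called were followed for KO against WT at each day and for the change of the KO effect. With a changed setting, those that turned were Cdc45 (-0.00413, no filter), Gins2 (0.00757) and Pola2 (0.10) with library size alone at day 1. As to how the KO effect changed between days, they were, with library size alone, Mcm7 (-0.18), Mcm10 (-0.045), Gins1 (-0.055) and Gins4 (-0.14), with at least 1 CPM in 3 libraries Mcm7 (-0.014), and Rrm1 (0.017 with no filter, 0.00671 with the replicate block). When a library was left out, the day 1 values ran from -0.11 to 0.14 for Cdc45, -0.25 to 0.033 for Gins2, -0.095 to 0.058 for Pola2, -0.048 to 0.15 for Pold1, -0.11 to 0.23 for Chaf1a and -0.018 to 0.14 for E2f1, and those of Fen1 at day 14 from -0.19 to 1.68. For the difference of the KO effects they ran from -0.17 to 0.36 for Mcm7, -0.059 to 0.58 for Mcm10, -0.071 to 0.56 for Gins1, -0.057 to 0.24 for Gins4 and -0.16 to 0.22 for Rrm1. Without WT day 14 replicate 1 the change was called for Mcm7, Mcm10 and Gins1.

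With 3 libraries a group, 1 unusual WT library sets much of the spread at day 14, and small changes may be missed. The low counts of Fen1 limit it to large differences.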
